A study of Mus musculus with 10 samples.

Results

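The genes described here are 9 genes of purinergic signalling, chosen by symbol: the nucleotide receptors P2ry12, P2ry13, P2ry6, P2rx4 and P2rx7, the nucleotide-degrading surface enzymes Entpd1 and Nt5e, and the adenosine receptors Adora1 and Adora3. They are 9 of the 24421 gene symbols in the count files, and all 9 passed the filter on low counts that left 18727 genes for testing. RNA seq was done on the microglial fraction of the cortex of 9-month-old mice in 3 groups: 3 WT libraries, 4 APP/PS1 libraries and 3 libraries of APP/PS1 mice given N-AS (APP/PS1+N-AS), with 2 mice pooled per library. APP/PS1 mice overexpress human APP with the Swedish mutation together with mutant PS1, and both APP/PS1 groups carry these transgenes. The promoters that drive them are not given in the sources used here. N-AS (N-acetyl sphingosine) was injected subcutaneously every day at 30 mg/kg for 8 weeks from 7 months of age. The design compares APP/PS1 with WT, and then N-AS-injected with APP/PS1 mice. By the study's methods the mice compared with N-AS received vehicle, which the labels of the APP/PS1 libraries do not name.

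Injured and active cells release ATP and ADP, which microglia sense through P2Y receptors, coupled to G proteins, and P2X receptors, which are ATP-gated cation channels. CD39, encoded by Entpd1, and CD73, encoded by Nt5e, then degrade extracellular ATP stepwise to adenosine, which acts on adenosine receptors. In the brain P2ry12 is known as a marker of homeostatic microglia that guides process movement towards injury, whereas Adora1 is also abundant in neurons.

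The libraries held between 8805804 and 19432075 reads. WT 1 had the fewest reads, yet also the fewest symbols without a read, 606 against 877 to 4025 in the other libraries. The cause of this was not tested. The labelled cell type was checked against its markers: 12 of 12 microglial markers were read in every library, but markers of neurons summed to between 1436 and 4853 CPM (reads of a gene relative to the TMM-scaled library size) and those of oligodendrocytes to between 1828 and 6504 CPM, against 797.7 to 3154 CPM for the microglial markers. The WT 3 library stood apart in its neuronal sum, the highest at 4853 CPM. WT 3 also had the lowest sum of endothelium and pericyte markers, 487.1 CPM against 896.1 to 1215 CPM in the other libraries. Its oligodendrocyte sum was 2269 CPM, against 6387 and 6504 CPM in WT 1 and WT 2. That low sum was shared by APP/PS1 3 (1828 CPM), APP/PS1 4 (1872 CPM) and APP/PS1+N-AS 3 (2725 CPM). With WT 3 these are the libraries numbered 7 to 10 in the labels. Libraries numbered 1 to 6 had oligodendrocyte sums of 3650 to 6504 CPM. The cause of this difference between library sets was not tested. The study's methods state that only male mice were used, yet Xist, a transcript of female cells, had between 5253 and 11188 reads in all 4 APP/PS1 libraries, APP/PS1+N-AS 1 and APP/PS1+N-AS 2, and between 29 and 37 reads in the WT libraries and APP/PS1+N-AS 3. The Y-linked genes Ddx3y, Eif2s3y, Kdm5d and Uty together had between 1492 and 3700 reads in WT, between 13 and 690 in APP/PS1, and 470, 863 and 2377 in APP/PS1+N-AS. Sex-linked reads therefore differ along with the APP/PS1 and WT groups, and in bulk RNA a change in the number of cells of a type and a change in RNA per cell cannot be told apart.

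In the GENCODE annotation of GRCm38 (mm10), several of these genes lie beside or across other genes. P2ry13 (chr3:59207892-59210882) and P2ry12 (chr3:59216272-59262871) lie 5389 bases apart on the minus strand, both within Med12l, which is read from the other strand and shares 9 exonic bases with P2ry12 and 0 with P2ry13. P2rx7 (chr5:122643911-122691432) and P2rx4 (chr5:122707544-122729738) follow each other on the plus strand with 16111 bases between them. P2rx4 overlaps no other annotated gene, while 119 exonic bases of P2rx7 also belong to Mir8115. The other members are P2ry6 (chr7:100937630-100974649), Entpd1 (chr19:40612366-40741602), Nt5e (chr9:88327197-88372092), Adora1 (chr1:134199223-134235431) and Adora3 (chr3:105870858-105908926). Mybph, on the opposite strand, covers 20.1% of the exonic bases of Adora1, and Tmigd3, on the same strand, covers 20.9% of those of Adora3. The kit was stranded, but the strand setting of the counting is not given in the sources used here, so values of Adora1 and Adora3 could include or lose reads of these neighbours.

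The 250 bases before the RefSeq start sites (GRCm38.p6) are shown for the 2 neighbouring pairs, which were chosen with their fold changes known. The part of these sequences in the levels or fold changes was not tested. RefSeq promoters were found for 8 of the 9 genes, and for P2rx7 the first of its listed start sites is shown. Capitals mark the PU box GAGGAA, bound by the macrophage factor PU.1, and the GC box GGGCGG, bound by Sp1, searched on both strands.
P2ry12: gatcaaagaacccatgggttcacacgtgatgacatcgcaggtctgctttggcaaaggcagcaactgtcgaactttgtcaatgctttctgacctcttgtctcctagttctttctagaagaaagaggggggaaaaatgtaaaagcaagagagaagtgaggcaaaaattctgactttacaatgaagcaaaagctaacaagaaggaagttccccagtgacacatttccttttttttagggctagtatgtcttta
P2ry13: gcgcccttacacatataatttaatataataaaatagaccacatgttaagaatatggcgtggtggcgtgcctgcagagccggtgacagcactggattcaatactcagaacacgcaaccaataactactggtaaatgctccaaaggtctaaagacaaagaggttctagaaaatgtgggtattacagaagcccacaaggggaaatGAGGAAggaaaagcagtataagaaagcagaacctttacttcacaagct
P2rx4: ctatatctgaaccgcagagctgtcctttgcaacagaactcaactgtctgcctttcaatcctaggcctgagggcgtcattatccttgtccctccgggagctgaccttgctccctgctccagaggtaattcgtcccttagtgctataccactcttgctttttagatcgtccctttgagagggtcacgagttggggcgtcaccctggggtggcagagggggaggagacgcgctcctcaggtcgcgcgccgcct
P2rx7: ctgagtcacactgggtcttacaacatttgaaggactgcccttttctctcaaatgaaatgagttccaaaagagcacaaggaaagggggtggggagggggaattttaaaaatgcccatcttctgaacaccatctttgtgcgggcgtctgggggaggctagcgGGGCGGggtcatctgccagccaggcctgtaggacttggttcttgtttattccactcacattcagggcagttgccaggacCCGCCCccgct
These windows are chr3:59262986-59263235 (P2ry12) and chr3:59210883-59211132 (P2ry13) on the minus strand, and chr5:122707294-122707543 (P2rx4) and chr5:122643677-122643926 (P2rx7) on the plus strand. P2ry13 held 1 PU box, 48 bases before its start, and P2rx7 held 2 GC boxes. P2ry12 and P2rx4 held neither sequence. Of the members not shown, Adora3 held 1 PU box, Nt5e 4 GC boxes, Adora1 3 GC boxes and Entpd1 2 PU boxes. For Adora1 and Entpd1 this was at 1 listed start site, and another held neither. Among 32851 RefSeq promoters of the same length, 23.3% held the PU box and 32.7% the GC box. The P2rx4 window had 13 CpG dinucleotides and 57.2% G and C, against 6 and 53.6% for P2rx7, 5 and 41.6% for P2ry13, and 3 and 41.6% for P2ry12.

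Levels of different genes were compared per length, as CPM per kilobase of annotated exon averaged over the 10 libraries. The length joins the exons of all annotated transcripts, for example 7025 bases for P2rx4 and 8602 for Nt5e. It is not the length of the transcripts expressed, so the order depends in part on the annotation. P2ry12 had the highest level at 32.1 CPM per kb (24.2 to 47.0 between libraries). This was above every library value of Entpd1 at 15.7 (9.31 to 20.8), P2ry13 at 11.4 (8.12 to 16.3) and Adora1 at 8.50 (6.79 to 11.5), 3 genes whose ranges overlap from each to the next. P2rx7 came next at 4.37 CPM per kb (3.84 to 5.12), below every library value of those 4 genes. P2ry6 at 2.39 (1.11 to 3.71), P2rx4 at 2.14 (1.34 to 3.46), Nt5e at 1.27 (0.911 to 2.03) and Adora3 at 0.962 (0.564 to 1.30) formed the lower end with overlapping ranges. Adora3 and P2ry6 rested on the fewest reads, from 29 to 90 and from 27 to 197 per library.

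In APP/PS1 against WT, P2rx4 was the 1 of 9 genes that passed the test, being 1.93-fold higher. By edgeR with Benjamini-Hochberg adjustment over all genes tested, 2.67% of all genes were called higher in this comparison at an adjusted p under 0.05, and 0 of the 9 were called lower. Of the 9 genes, 8 had a higher fitted mean and 1, Adora1, a lower one, while all 9 were lower once the libraries were scaled to microglial markers. The median log2 fold change of the 9 was 0.36, against -0.07 over all genes tested. At an unadjusted p under 0.05, 4 of the 9 (P2ry6, P2rx4, Entpd1 and Adora3) were higher, against 8.3% of all genes. In 5 of the 9 (those 4 and P2rx7) every APP/PS1 library lay above every WT library, against 8.15% of all genes. DESeq2 called 3 of the 9 higher, P2rx4, P2ry6 and Entpd1, against 4.93% of the genes it gave an adjusted p. The p-values measure the spread between these libraries of 2 pooled mice.

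**Figure D1:**
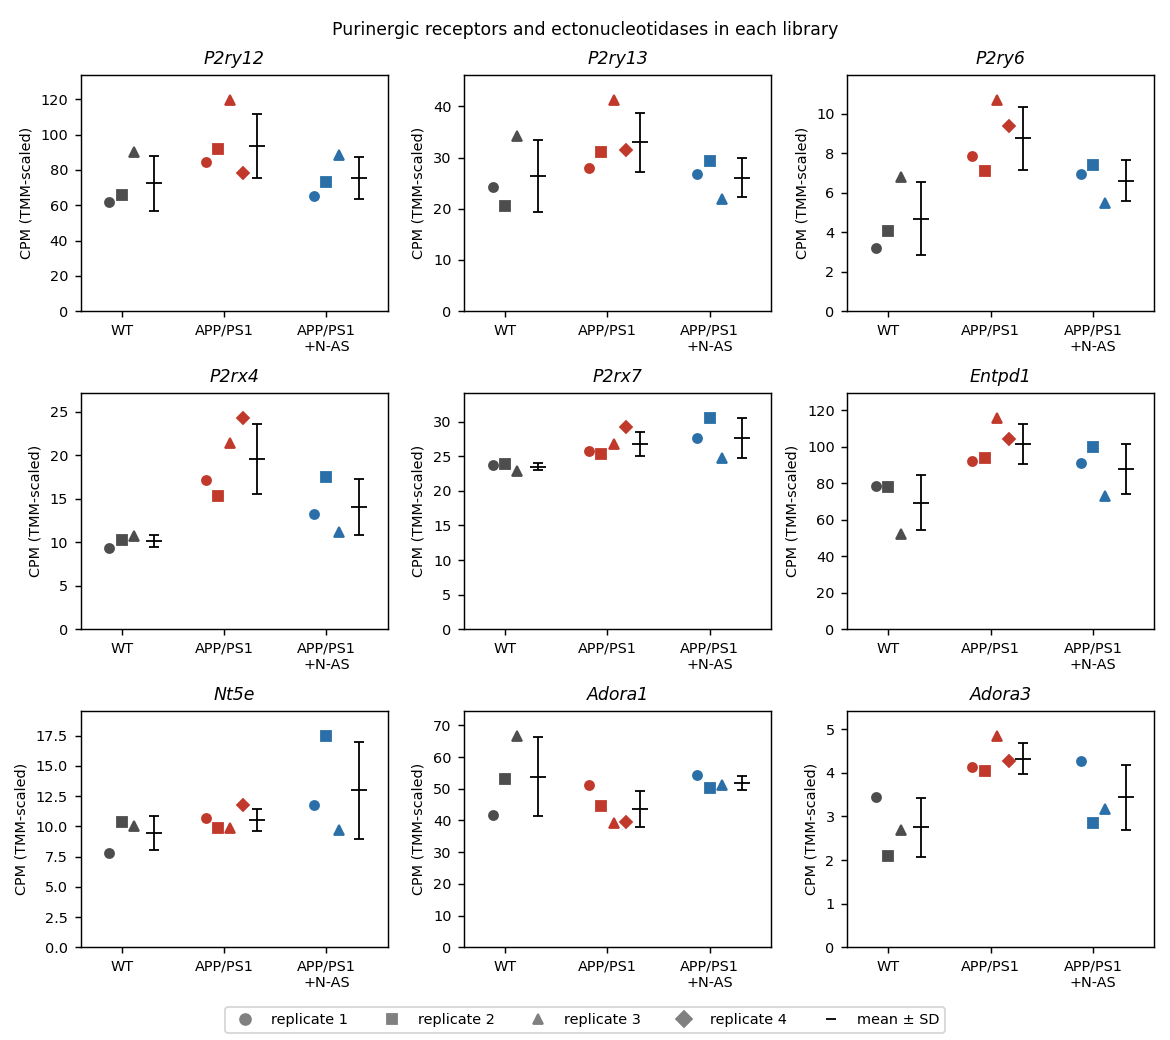
TMM-scaled CPM of the 9 genes in each library (symbols by replicate number) with the group mean ± SD beside them; n = 3 WT, 4 APP/PS1 and 3 APP/PS1+N-AS libraries. P2rx4 lay between 9.38 and 10.7 CPM in WT and between 15.4 and 24.3 CPM in APP/PS1, while the P2ry12 libraries of the 3 groups overlap.

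Among the P2Y receptors, P2ry12, the ADP receptor, was at 61.7, 65.5 and 90.4 CPM in WT, at 84.2, 91.8, 119.7 and 78.4 CPM in APP/PS1, and at 65.0, 73.0 and 88.3 CPM in APP/PS1+N-AS (replicates in order). WT 3 lay above 2 of the 4 APP/PS1 libraries, so the groups overlap. Its means were 72.6 ± 15.6 (SD, n = 3), 93.5 ± 18.3 (n = 4) and 75.4 ± 11.8 (n = 3). For P2ry12 the log2 fold change in APP/PS1 against WT was 0.36 ± 0.19 (SE, edgeR adjusted p = 0.377), within the spread between replicates. The WT 3 library was the highest of the WT libraries for P2ry12, P2ry13 and P2ry6, and without it the log2 fold change of P2ry12 was 0.56 (adjusted p = 0.117), and without APP/PS1 3 it was 0.23 (adjusted p = 0.627).

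P2ry13, a second ADP receptor, was at 24.3, 20.5 and 34.2 CPM in WT, at 27.9, 31.0, 41.3 and 31.6 CPM in APP/PS1, and at 26.8, 29.4 and 21.9 CPM in APP/PS1+N-AS. APP/PS1 3 was the highest library, as for P2ry12, and the groups overlap. APP/PS1 3 also had the highest microglial marker sum, 3154 CPM against 797.7 to 2810 in the other libraries. Its monocyte and neutrophil sum, 60.9 CPM against 6.40 to 21.1, and its astrocyte sum, 3834 CPM against 2171 to 3444, were highest too. So, narrowly, were its border macrophage (48.2 CPM) and lymphocyte (11.5 CPM) sums. The part of these markers in the values of the 9 genes was not tested. The log2 fold change of P2ry13 in APP/PS1 against WT was 0.32 ± 0.20 (edgeR adjusted p = 0.464). The ratio of P2ry13 to P2ry12 reads, which no scaling between libraries can move, lay between 0.313 and 0.394 in WT, between 0.332 and 0.403 in APP/PS1 and between 0.248 and 0.413 in APP/PS1+N-AS, so the neighbouring genes kept overlapping proportions in the 3 groups. Across the 10 libraries the centred log2 profiles of P2ry12 and P2ry13 differed by a root mean square of 0.21, which put P2ry13 at rank 688 of 17971 genes by likeness to P2ry12.

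P2ry6, a UDP receptor linked to phagocytosis in microglia, was at 3.21, 4.08 and 6.79 CPM in WT, at 7.84, 7.10, 10.7 and 9.37 CPM in APP/PS1, and at 6.98, 7.41 and 5.46 CPM in APP/PS1+N-AS. Every APP/PS1 library lay above every WT library, although APP/PS1 2 lay only just above WT 3. The difference of 0.88 ± 0.26 (log2) did not pass the edgeR test (adjusted p = 0.106), and DESeq2 gave an adjusted p of 0.0477. Without WT 3 the log2 fold change of P2ry6 was 1.26 and passed the edgeR test (adjusted p = 0.0190), so this library decides the call.

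P2rx4, an ATP-gated channel that activated microglia are known to carry, was at 9.38, 10.3 and 10.7 CPM in WT, at 17.2, 15.4, 21.4 and 24.3 CPM in APP/PS1, and at 13.3, 17.5 and 11.2 CPM in APP/PS1+N-AS. The APP/PS1 libraries did not overlap the WT libraries, and APP/PS1+N-AS lay between them, overlapping APP/PS1. Its means were 10.1 ± 0.691 (SD, n = 3), 19.6 ± 4.06 (n = 4) and 14.01 ± 3.22 CPM (n = 3). In APP/PS1 against WT the log2 fold change of P2rx4 was 0.95 ± 0.20 (SE, edgeR adjusted p = 0.0287). The call depends on single libraries: the edgeR adjusted p was 0.0954 without WT 1, 0.0834 without WT 2, 0.0833 without APP/PS1 3, 0.0809 without APP/PS1 4 and 0.0517 without APP/PS1+N-AS 1, with log2 fold changes of 0.84 to 1.05 over all 10 libraries left out in turn. It was also lost with scaling to total counts (0.99, edgeR adjusted p = 0.0547) and among libraries numbered 1 to 6 (0.69, adjusted p = 0.0768). With the summed Y-linked level as a covariate, an alternative chosen after seeing the data, the log2 fold change of P2rx4 was 0.44 ± 0.23 (edgeR adjusted p = 0.695). The Y-linked level was 7.41 to 7.60 log2 CPM in WT and 0.739 to 5.82 in APP/PS1. As these ranges do not overlap, this fit cannot tell sex-linked differences apart from genotype.

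P2rx7, a channel that needs high ATP and drives inflammasome activation, was at 23.7, 23.9 and 22.9 CPM in WT, at 25.8, 25.3, 26.8 and 29.2 CPM in APP/PS1, and at 27.7, 30.6 and 24.8 CPM in APP/PS1+N-AS. Both APP/PS1 groups lay above WT in every library, but the log2 difference was small, 0.19 ± 0.11 in APP/PS1 against WT (edgeR adjusted p = 0.445). The number of P2rx4 reads per P2rx7 read was 0.395, 0.430 and 0.468 in the WT libraries, 0.666, 0.606, 0.799 and 0.832 in APP/PS1, and 0.480, 0.574 and 0.452 in APP/PS1+N-AS. The APP/PS1 libraries thus lay above all 6 others in this ratio, which was chosen after the values were seen and was not tested.

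**Figure D2:**
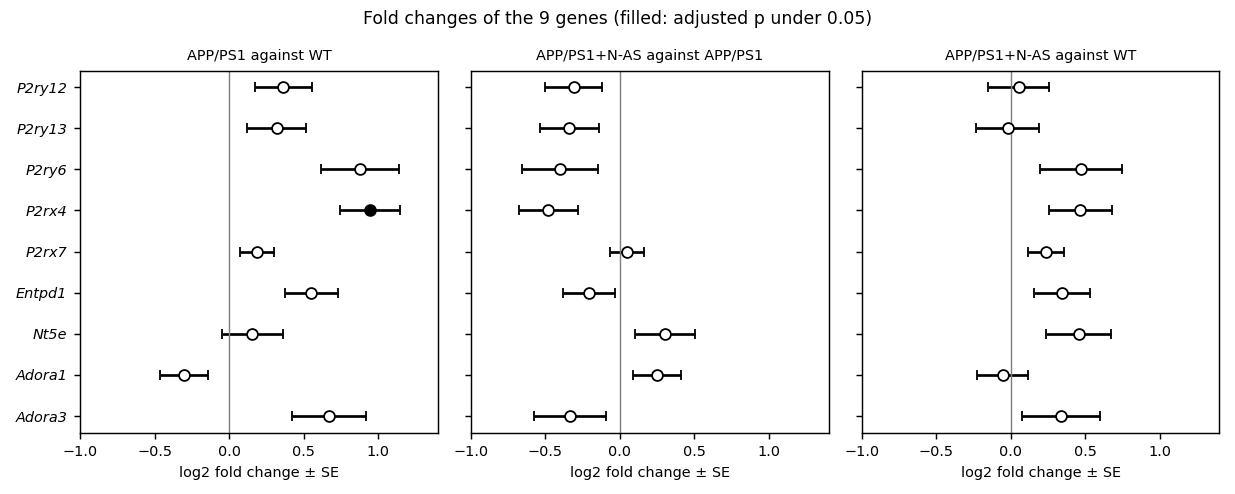
Log2 fold change ± SE of each gene from the edgeR fit of all 10 libraries, in 3 panels for the 3 comparisons; filled points passed an adjusted p of 0.05. The 1 filled point is P2rx4 in APP/PS1 against WT at 0.95, Adora1 lies below 0 in that panel at -0.30, and marker scaling puts all 9 below 0 there.

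Of the enzymes, Entpd1, which degrades ATP and ADP to AMP, was at 78.2, 77.8 and 52.0 CPM in WT, at 92.3, 93.8, 115.8 and 104.2 CPM in APP/PS1, and at 91.0, 100.02 and 73.0 CPM in APP/PS1+N-AS. Every APP/PS1 library lay above every WT library. The log2 fold change of Entpd1 was 0.55 ± 0.18 and did not pass the edgeR test (adjusted p = 0.133), whereas DESeq2 gave an adjusted p of 0.0385. Among libraries numbered 1 to 6 the log2 difference of Entpd1 was 0.25 and among those numbered 7 to 10 it was 1.08, where WT 3 is the only WT library.

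Nt5e, the enzyme that turns AMP into adenosine, was at 7.83, 10.4 and 10.1 CPM in WT, at 10.7, 9.90, 9.83 and 11.8 CPM in APP/PS1, and at 11.8, 17.5 and 9.67 CPM in APP/PS1+N-AS. The 3 groups overlap, and APP/PS1+N-AS 2 stands above all other libraries. Its log2 fold change in APP/PS1 against WT was 0.16 ± 0.20 (edgeR adjusted p = 0.757). For each Nt5e read the WT libraries held between 5.16 and 9.98 Entpd1 reads, the APP/PS1 libraries between 8.64 and 11.8 and those of APP/PS1+N-AS between 5.72 and 7.73.

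Of the adenosine receptors, Adora1, a receptor that inhibits adenylyl cyclase, was at 41.7, 53.0 and 66.6 CPM in WT, at 51.3, 44.6, 39.3 and 39.6 CPM in APP/PS1, and at 54.4, 50.2 and 51.1 CPM in APP/PS1+N-AS. The WT libraries overlapped both other groups, with the highest value in WT 3, the library with the highest neuronal marker sum, and the part of neuronal RNA in this was not tested. The log2 fold change of Adora1 was -0.30 ± 0.16 (edgeR adjusted p = 0.380) in APP/PS1 against WT and -0.11 without WT 3. Mybph, which overlaps Adora1, had 63 to 270 reads per library against 351 to 1384 for Adora1. Adora3, another adenosine receptor that couples to inhibitory G proteins, was at 3.44, 2.10 and 2.70 CPM in WT, at 4.14, 4.04, 4.84 and 4.28 CPM in APP/PS1, and at 4.28, 2.86 and 3.17 CPM in APP/PS1+N-AS. The APP/PS1 and WT libraries of Adora3 did not overlap, and the log2 fold change of 0.67 ± 0.25 did not pass the edgeR test (adjusted p = 0.191). Tmigd3, which overlaps Adora3, had 2 to 16 reads per library against 29 to 90 for Adora3.

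The general microglial markers moved more than most of the 9 genes. In APP/PS1 against WT, 10 of the 12 markers passed the edgeR test and were higher, with a median log2 fold change of 1.39 and a range from 0.43 (Sall1) to 2.51 (C1qa), and their summed level ran from 797.7 to 1146 CPM in the WT libraries, from 2471 to 3154 CPM in the APP/PS1 libraries and from 1530 to 1989 CPM in those of APP/PS1+N-AS. For 5 of the 9 genes (P2ry12, P2ry13, P2rx7, Nt5e and Adora1) all 12 markers had the larger log2 fold change, while for P2rx4 it was 9 of 12, and for P2ry6, Entpd1 and Adora3 it was 10 of 12. Of the 8 oligodendrocyte markers 2 passed the edgeR test and were lower, and 0 passed as higher. The part of these marker differences in the values of the 9 genes was not tested.

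**Figure D3:**
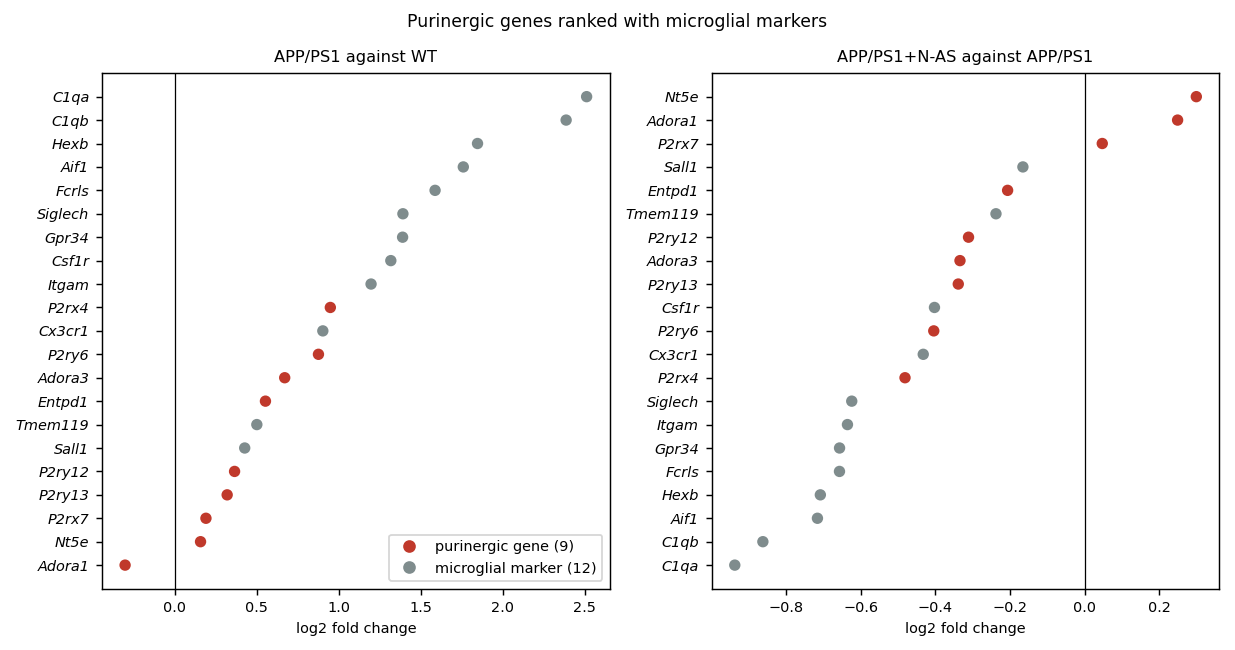
Log2 fold changes of the 9 purinergic genes (red) and 12 microglial markers (grey), ranked in APP/PS1 against WT (left) and APP/PS1+N-AS against APP/PS1 (right). On the left P2rx4 at 0.95 lies below 9 of the markers, and on the right Nt5e, Adora1 and P2rx7 lie above all 12.

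When each library was scaled so that the mean log2 level of the 12 microglial markers was equal, the log2 fold changes of the genes shifted. The median log2 fold change of all genes tested in APP/PS1 against WT was then -1.52, a median shift of -1.45 per gene, and 9 of the 9 genes were then called lower, against 89.6% of all genes. On this scale P2rx4 was at -0.50 (edgeR adjusted p = 0.0381), P2ry6 at -0.52, Adora3 at -0.79, Entpd1 at -0.94, P2ry12 at -1.07, P2ry13 at -1.11, P2rx7 at -1.26, Nt5e at -1.27 and Adora1 at -1.71, so that 8 of the 9 lay above the median of all genes and Adora1 below it. A ratio of reads within a library depends on no scaling. P2ry12 reads per Csf1r read, a marker of the microglial lineage, were 0.388, 0.361 and 0.373 in WT, 0.193, 0.197, 0.218 and 0.162 in APP/PS1, and 0.171, 0.175 and 0.292 in APP/PS1+N-AS. All WT libraries were thus above all others in this ratio, which was chosen after the values were seen and was not tested. Csf1r itself was higher in APP/PS1 than in WT, at 1.32 (edgeR adjusted p = 0.00475), against 0.36 for P2ry12, so the ratio depends on the marker chosen. The markers Sall1 (0.43) and Tmem119 (0.50) changed less than Csf1r, and ratios to them were not computed.

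**Figure D4:**
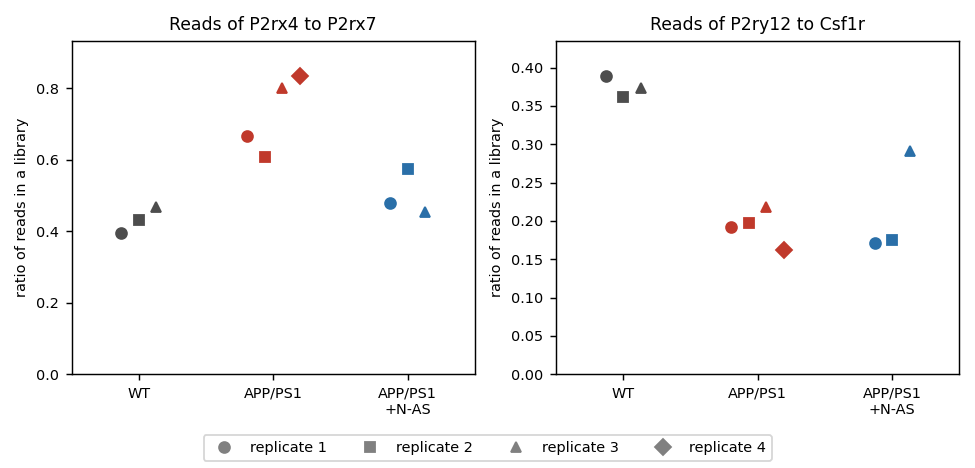
Ratio of reads within each library, P2rx4 to P2rx7 (left) and P2ry12 to Csf1r (right), by group, with symbols by replicate number. The left ratio is 0.395 to 0.468 in WT and 0.606 to 0.832 in APP/PS1, and the right ratio is 0.361 to 0.388 in WT and 0.162 to 0.218 in APP/PS1. Csf1r itself had a log2 fold change of 1.32 in APP/PS1 against WT.

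N-AS-injected mice were then compared with the APP/PS1 group, and the same APP/PS1 libraries serve in both comparisons. By edgeR 0 of the 9 genes passed an adjusted p of 0.05 (0% of all genes did), 1 of the 9 (P2rx4) was lower at an unadjusted p under 0.05, against 4.05% of all genes, and DESeq2 called 0 of the 9, against 0.448% of the genes it gave an adjusted p. The groups overlapped for all 9 genes, whereas 12.7% of all genes did not overlap in either direction. The fitted mean was lower for P2ry12, P2ry13, P2ry6, P2rx4, Entpd1 and Adora3 and higher for P2rx7, Nt5e and Adora1, with a median log2 fold change of -0.31 against -0.01 over all genes, and the first 6 turned higher with marker scaling.

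In this comparison P2rx4 had a log2 fold change of -0.48 ± 0.20 (edgeR adjusted p = 0.531). Among libraries numbered 1 to 6 the log2 difference of P2rx4 was -0.09, and among those numbered 7 to 10, which hold 1 APP/PS1+N-AS library, it was -1.02. The same split was seen for P2ry13 (-0.07 and -0.72), P2ry6 (-0.05 and -0.86) and Entpd1 (0.04 and -0.59). In each of these genes APP/PS1+N-AS 3 was the lowest of its group and APP/PS1 3 was the highest or second highest of its group. APP/PS1+N-AS 3 is also the library of its group with 29 Xist reads and the lowest microglial marker sum, 1530 CPM, and the part of either in these values was not tested. P2ry12 differed from this pattern, with its highest APP/PS1+N-AS value, 88.3 CPM, in that library.

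For Nt5e the log2 fold change in APP/PS1+N-AS against APP/PS1 was 0.30 ± 0.20 (edgeR adjusted p = 0.693) and was 0.02 without APP/PS1+N-AS 2. Adora1 had 0.25 ± 0.16 (edgeR adjusted p = 0.681), P2rx7 0.05 ± 0.11 (adjusted p = 0.933), P2ry12 -0.31 ± 0.19 (adjusted p = 0.668) and Adora3 -0.33 ± 0.24 (adjusted p = 0.721). Scaled to the microglial markers, which moved the median of all genes by 0.59, 3 of the 9 genes (P2rx7, Nt5e and Adora1) were called higher, against 27.1% of all genes.

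In APP/PS1+N-AS against WT, 0 of the 9 genes passed the edgeR test (0.187% of all genes did in either direction), 0 did at an unadjusted p under 0.05, against 6.73% of all genes, and DESeq2 called 0, against 0.991% of the genes it gave an adjusted p. P2rx4 and P2rx7 lay above WT in every APP/PS1+N-AS library, 2 of the 9 genes against 4.9% of all genes. Their log2 fold changes were 0.47 ± 0.21 (edgeR adjusted p = 0.734) and 0.24 ± 0.12 (adjusted p = 0.758). P2ry12 and P2ry13 were near 0 at 0.05 ± 0.20 and -0.02 ± 0.21. Scaled to the microglial markers, 4 of the 9 (P2ry12, P2ry13, P2rx7 and Adora1) were called lower, against 68.7% of all genes.

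A further list of 31 purinergic genes held the other receptors, enzymes, adenosine transporters, ATP-release channels and receptor partners, and 29 of them were tested. In APP/PS1 against WT 1 of the 29, Nlrp3, was called by edgeR in either direction, against 3.47% of all genes. Nlrp3, the sensor of the inflammasome that P2rx7 can trigger, was at 5.58, 6.43 and 4.77 CPM in WT, at 24.0, 33.9, 21.5 and 23.7 CPM in APP/PS1, and at 17.2, 19.5 and 8.93 CPM in APP/PS1+N-AS. The APP/PS1 libraries lay above all others, and the log2 fold change of Nlrp3 was 2.20 ± 0.28 (edgeR adjusted p = 0.00229) against WT. Scaled to the microglial markers it was still higher at 0.76 (edgeR adjusted p = 0.0235), and with the Y-linked covariate it was 2.29 (adjusted p = 0.0508). In APP/PS1+N-AS the log2 fold change of Nlrp3 was -0.75 ± 0.26 against APP/PS1 (edgeR adjusted p = 0.509), with no overlap between libraries, and 1.45 ± 0.29 against WT (adjusted p = 0.110).

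The other 28 tested genes passed in none of the 3 comparisons by edgeR, and 20 of the 29 had a lower fitted mean in APP/PS1 than in WT. The median log2 fold change of the 29 was -0.13, against -0.07 over all genes tested. All 4 other P2Y receptors and all 4 tested other P2X receptors had log2 fold changes below 0, from -0.68 to -0.03, as values that did not pass. For each of them WT 1 was the highest WT library. Among libraries numbered 7 to 10, where WT 3 is the only WT library, several log2 differences were above 0. They were 1.08 for P2ry2, 0.76 for P2rx5, 0.37 for P2ry4 and 0.26 for P2rx1. P2ry14 (-0.24), P2rx3 (-0.24) and P2rx6 (-0.23) stayed below 0. P2ry1, the most abundant of the other P2Y receptors, was at 136.8, 78.2 and 63.3 CPM in WT and at 59.7, 57.6, 60.9 and 66.7 CPM in APP/PS1, with a log2 fold change of -0.60 ± 0.23 (edgeR adjusted p = 0.200). Its log2 difference was -0.82 among libraries numbered 1 to 6 and 0.0096 among those numbered 7 to 10, and without WT 3 it passed the test at -0.79 (edgeR adjusted p = 0.0447). Slc29a3, an intracellular nucleoside transporter, was at 36.2, 25.5 and 24.3 CPM in WT, at 36.7, 38.8, 44.4 and 42.6 CPM in APP/PS1 and at 31.5, 33.4 and 31.9 CPM in APP/PS1+N-AS. The APP/PS1 libraries of Slc29a3 lay above both other groups, at log2 fold changes of 0.51 ± 0.15 against WT (edgeR adjusted p = 0.100) and, for APP/PS1+N-AS against APP/PS1, -0.33 ± 0.15 (adjusted p = 0.558). Against WT, DESeq2 called Slc29a3 at 0.53 (adjusted p = 0.0183), and without WT 1 it passed the edgeR test at 0.71 (adjusted p = 0.0254). Gnai2, the G protein subunit through which P2ry12 signals, had the same order, with a log2 fold change of 0.44 ± 0.17 in APP/PS1 against WT (edgeR adjusted p = 0.220).

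The most abundant genes of the remaining roles overlapped between APP/PS1 and WT. Enpp2, an ectonucleotidase-family enzyme known as autotaxin, ranged from 216.5 to 677.7 CPM in WT and from 528.8 to 952.9 CPM in APP/PS1 (log2 fold change 0.52 ± 0.46, edgeR adjusted p = 0.630). Adora2a had a log2 fold change of -0.08 ± 0.24 (adjusted p = 0.899), P2rx6 -0.42 ± 0.28 (adjusted p = 0.499) and Panx2 -0.24 ± 0.25 (adjusted p = 0.695).

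**Figure D5:**
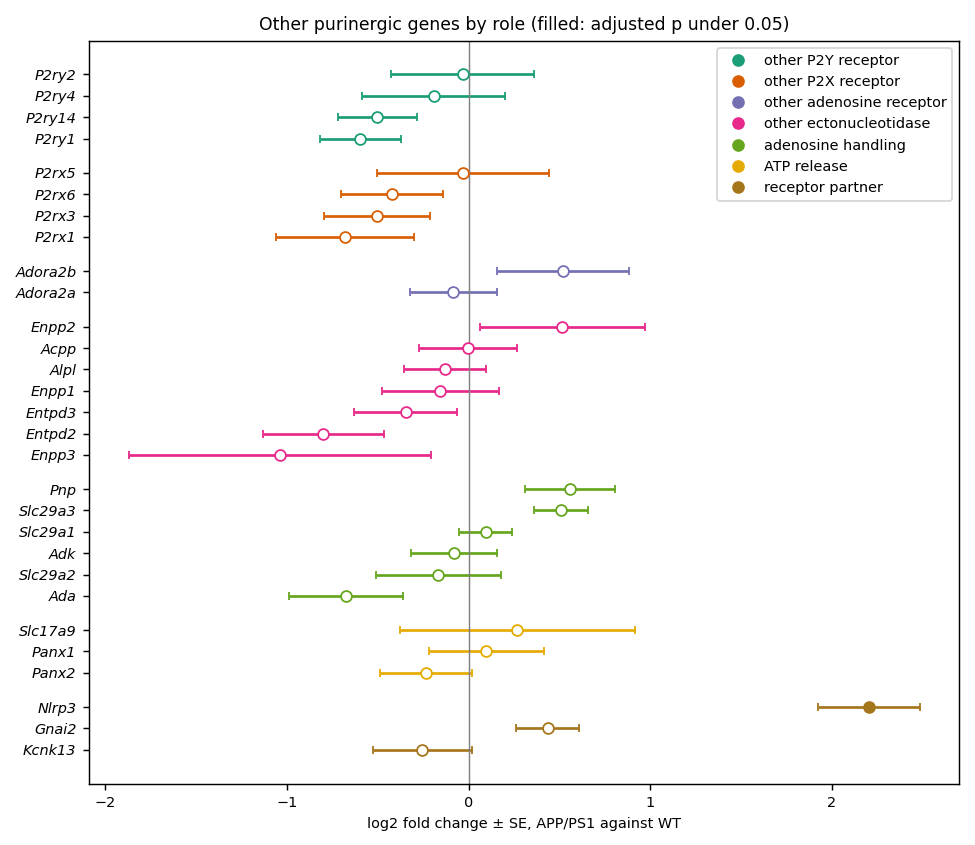
Log2 fold change ± SE in APP/PS1 against WT of the 29 other purinergic genes tested, grouped and coloured by role; filled points passed an edgeR adjusted p of 0.05. Nlrp3 at 2.20 is the filled point. The 8 other P2Y and P2X receptors lie below 0, where the median of all genes tested is -0.07.

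Likeness was measured as the root mean square difference of centred log2 CPM over the 10 libraries, among genes with a mean of at least 10 reads. The nearest genes to P2rx4 were Sgpl1 (0.11), Syngr2 (0.12) and Serp1 (0.13), where the profile of P2rx4 itself had a root mean square of 0.44. P2ry6 was nearest to Abhd12 (0.14), Lgmn (0.15) and Timp2 (0.15), and P2rx4 was at rank 58 for it, at 0.23. Entpd1 was nearest to Stat6 (0.06), Tpt1 (0.07) and Nfe2l2 (0.08), and Adora1 to Nbea (0.05), Vps33a (0.07) and Map3k12 (0.07). P2ry12 was nearest to Gm17066 (0.08), Erlec1 (0.10) and Ccna2 (0.10), P2ry13 to Hist2h4 (0.11), Slc35c1 (0.13) and 1600014C10Rik (0.13), and P2rx7 to H13 (0.06), Snd1 (0.07) and Dgkd (0.07). For Nt5e these were Sema3d (0.15), Jade2 (0.15) and Igfbp5 (0.16), and for Adora3 Gpr137b-ps, Gal3st4 and Gm13238 (each 0.16).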

How the data were processed

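The authors deposited counts: whole-number reads per gene symbol for each of the 10 libraries, without normalization, made from stranded, rRNA-depleted paired reads. The submitters' processing notes name TopHat, edgeR and mm10, and versions, annotation and the strand setting of the counting are not given in the sources used here. Of 24481 lines, 103 share a symbol and were summed, which left 24421 symbols. Groups and replicate numbers came from the labels, and pools of 2 mice per library, dose and ages from the study's methods and labels. Genes were filtered with filterByExpr and scaled by TMM, and 18727 were tested in one model of 3 groups by the quasi-likelihood test of edgeR 4.0.16 in R 4.3.3, with Benjamini-Hochberg adjustment over all of them (threshold 0.05, biological coefficient of variation 27.4%). The code was tested on simulated data with planted changes and a common spread for all genes. Of planted 4-fold changes, 94% were called in APP/PS1 against WT and 93% in APP/PS1+N-AS against APP/PS1. Of 2-fold changes 30% were called in each, so most changes of that size were missed. CPM are TMM-scaled, with a prior count of 2 on the log2 scale. One read was worth 0.0475 to 0.119 CPM. Without molecular identifiers, PCR duplicates add to the counting error.

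The members and lists were chosen with earlier results of these data known. Named were all 9 members, the other purinergic genes that passed in any comparison, the most abundant of each role, the 3 genes most alike to each member and genes over a member. Alternatives were RLE, total-count and marker scaling, limma 3.58.1 on quantile-normalized values, DESeq2 1.42.0, no filter, a replicate block, library sets, the 2 groups compared alone, and each library left out. Same-numbered APP/PS1+N-AS and APP/PS1 libraries deviated together (r = 0.278, 0.142 and 0.309 after removal of group means). In that comparison 3 of 6 libraries resembled their own number most. The replicate number was not in the main fit and entered only as the replicate block. Coordinates and exon lengths are from GENCODE M21 (GRCm38).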

Additional observations from a re-analysis of the deposited data

Results flagged for a closer look

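The gap of the highest or lowest APP/PS1 library to its nearest neighbour, divided by the range of the 4 libraries, was compared with Dixon's 95% critical value for 4 samples in 38 genes, and chance flags about 1 in 20 groups. None of the 9 members stood out in this way, and 4 of the other purinergic genes did, each by 1 library. P2rx3 was at 2.90 CPM in APP/PS1 4 and at 2.52 to 2.59 in the other APP/PS1 libraries. P2rx6 was at 4.42 CPM in APP/PS1 4 and at 2.46 to 2.67 in the others. Adora2b was at 2.25 CPM in APP/PS1 3 and at 1.29 to 1.43 in the others. Kcnk13, a potassium channel of microglia, was at 7.80 CPM in APP/PS1 4 and at 9.21 to 9.40 in the others.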

How the results depend on the processing

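In APP/PS1 against WT the count of the 9 members called, 1 as reported, was 0 with total counts only, with the replicate block (P2rx4 0.83, edgeR adjusted p = 0.0989), among library numbers 1 to 6 only and with the Y-linked level as a covariate (chosen after seeing the data), 3 with DESeq2, 9 scaled to the microglial markers, 4 at unadjusted p under 0.05, and 0 to 2 with single libraries left out. Of the 29 other purinergic genes tested, 1 as reported, 27 were called with marker scaling, 2 with DESeq2 and library numbers 1 to 6, 0 with the Y-linked covariate, 7 unadjusted and 1 to 2 with single libraries left out. Over all 18727 genes tested, marker scaling called 16777 lower and 83 higher, and 3221 had an unadjusted p under 0.05 by edgeR. DESeq2 called 1296 of the 17219 genes it gave an adjusted p. The Y-linked levels of the WT and APP/PS1 libraries do not overlap, so fits with this covariate cannot tell sex-linked differences apart from genotype. In APP/PS1+N-AS against APP/PS1, 0 members and 0 other genes were called as reported, but 3 and 5 with marker scaling and 1 and 2 unadjusted. Over all genes tested, marker scaling called 5069 higher and 21 lower, and 1653 had an unadjusted p under 0.05 by edgeR. In APP/PS1+N-AS against WT, 4 members and 19 other genes were called with marker scaling, 1 other gene (Nlrp3) with DESeq2, with library set as a factor and with library numbers 1 to 6, 2 unadjusted, and 0 to 1 with single libraries left out. Here marker scaling called 12858 of all genes tested lower and 50 higher, 1261 had an unadjusted p under 0.05 by edgeR, and DESeq2 called 180.

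Marker scaling turned the direction of P2ry12 (-1.07), P2ry13 (-1.11), P2ry6 (-0.52), P2rx4 (-0.50), P2rx7 (-1.26), Entpd1 (-0.94), Nt5e (-1.27) and Adora3 (-0.79) in APP/PS1 against WT. It turned P2ry12 (0.32), P2ry13 (0.25), P2ry6 (0.18), P2rx4 (0.085), Entpd1 (0.37) and Adora3 (0.26) in APP/PS1+N-AS against APP/PS1. It also turned P2ry12 (-0.75), P2ry6 (-0.34), P2rx4 (-0.41), P2rx7 (-0.64), Entpd1 (-0.57), Nt5e (-0.42) and Adora3 (-0.54) in APP/PS1+N-AS against WT. Most marker genes were higher in APP/PS1 and APP/PS1+N-AS than in WT. In both comparisons with WT this scaling therefore moves the log2 fold changes of other genes down by construction. In APP/PS1+N-AS against APP/PS1 the markers were lower, and the scaling moves them up, by a median of 0.59.

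Other turns were of values near 0 that did not pass: Nt5e in APP/PS1 against WT (-0.021 with the Y-linked covariate), Entpd1 (0.031 among library numbers 1 to 6) and P2rx7 (-0.034 without APP/PS1+N-AS 2) in APP/PS1+N-AS against APP/PS1. In APP/PS1+N-AS against WT they were P2ry13 (0.011 with no filter, 0.020 with the replicate block, 0.013 with library set as a factor, 0.29 among library numbers 1 to 6, and -0.17 to 0.23 with single libraries left out), P2ry12 (-0.049 to 0.25 with single libraries left out) and Adora1 (0.10 among library numbers 1 to 6, 0.021 with the Y-linked covariate, and -0.20 to 0.13 with single libraries left out). The cause was not tested.

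The replicate number pairs nothing by the labels in the comparisons with WT: same-numbered residuals had r = -0.486, 0.441 and -0.01 for APP/PS1 and WT and -0.136, 0.348 and 0.240 for APP/PS1+N-AS and WT, and 1 of 6 and 3 of 6 libraries resembled their own number most. Apart from P2rx4 in APP/PS1 against WT, the block changed no call. Adora3 (29 to 90) and P2ry6 (27 to 197) had the fewest reads per library of the 9.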
